A study of Mus musculus with 21 samples.

Results

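The genes described here act in innate RNA sensing and interferon signalling, and were followed across mouse embryonic stem cells that lacked, or had a block in, proteins of RNA silencing. The 9 genes were taken by symbol from a deposited table of 22512 genes: Mavs, Ddx58, Ifih1, Irf1, Irf3, Irf7, Irf9, Stat2 and Bst2. Of these, 7 were measured, and Ifih1 and Irf7 were not analysed here. All cells derived from a parental 129S6/SvEvTac stem cell line with a GFP reporter for TRIM71 binding (GFP_5xT71BS) and a stably transfected FLAG-Cas9 with a blasticidin marker, so the controls carry the reporter and the nuclease too. Total RNA was sequenced in 2 experiments, with 7 groups of 3 libraries that the design text calls biological replicates. Experiment 1 held the parental cells with no further change (W), cells edited to Trim71-/- (Trim71KO) and cells edited to Ago2-/- (Ago2KO). Experiment 2 held parental cells given a plasmid that encodes the peptide T6B fused to mCherry (T6B_WT), parental cells given its mutant form (T6B_MUT), and the edited cells transfected with an empty plasmid (Trim71KO_empty and Ago2KO_empty). T6B_MUT served as the control of Experiment 2, where unedited cells with an empty plasmid were not among the samples, so that plasmid and genotype cannot be told apart in its knockout comparisons. Whether an edited line is 1 clone was not given in the sources used here.

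Viral or cellular double-stranded RNA in the cytoplasm is bound by RIG-I, the product of Ddx58, and by MDA5, the product of Ifih1. Both act through MAVS, an adaptor on the outer mitochondrial membrane, which leads to activation of the transcription factors IRF3 and IRF7 and to interferon production. Secreted interferon then signals through factors that include STAT2 and IRF9, which bind the interferon-stimulated response element (ISRE) and switch on effectors such as tetherin, the product of Bst2, which holds budding virions at the cell surface. Pluripotent stem cells are known for a weak interferon response, and microRNAs, among them miR-673-5p, have been reported to hold down Mavs in mouse embryonic stem cells. TRIM71 is an RNA-binding repressor of its target mRNAs, AGO2 is an Argonaute protein that carries microRNAs, and T6B is an Argonaute-binding fragment of TNRC6B that keeps Argonaute from its TNRC6 partners.

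Each library of Experiment 1 held between 29.6 M and 50.8 M counts, and each of Experiment 2 between 33.9 M and 57.9 M. Ago2 stood at 134 to 153 CPM (counts scaled to library size, with TMM factors) in W and at 39.8 to 43.6 CPM in Ago2KO. In the libraries labelled Ago2KO_empty it was 87.4, 167 and 45.6 CPM for replicates 1, 2 and 3, against 112 to 143 CPM in T6B_MUT. Replicate 2 did not show the loss, and replicate 1 lay between replicate 3 and the T6B_MUT libraries. Ago2 itself was not called in this group (log2 fold change -0.30, edgeR adjusted p = 0.601). The main values that rest on these libraries are also given without replicate 2, which still leaves replicate 1 with its intermediate level. Trim71 mRNA fell by 0.50 on the log2 scale in Trim71KO and by 0.29 in Trim71KO_empty (edgeR adjusted p = 1.55e-06 and 0.0117), and the labels do not say which part of the gene was edited. A lower level was not limited to these groups, since Trim71 was also called lower in Ago2KO (-0.25, edgeR adjusted p = 0.00161). It was not called with T6B_WT (-0.20, adjusted p = 0.102) or in the libraries labelled Ago2KO_empty (-0.01, adjusted p = 0.951). All 7 pluripotency markers were present, with a summed level of 1859 to 2471 RPKM in the 21 libraries. The 5 primitive endoderm markers summed to 4.48 to 5.18 RPKM in W, 0.623 to 0.668 in Trim71KO and 1.30 to 1.60 in Ago2KO. In Experiment 2 they summed to 3.13 to 3.27 RPKM in T6B_MUT, 2.77 to 3.22 in T6B_WT, 0.997 to 1.47 in Trim71KO_empty and 1.96 to 2.66 in Ago2KO_empty. None of these 5 was at 0 in any library, and their part in the results below was not tested. For fibroblasts 3 of 6 markers and for immune cells 3 of 6 were in the table, at 0.734 to 3.83 and 8.65 to 16.1 summed RPKM. In bulk RNA, fewer cells of a type and less RNA per cell cannot be told apart.

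The microRNA sequences are shown first because the seed, bases 2 to 8 in capitals, is what pairs with a target mRNA. They are mature sequences from RefSeq (GRCm38.p6), written 5′ to 3′. The last 5 share 1 seed and belong to the miR-290 and miR-302 clusters.
mmu-miR-673-5p: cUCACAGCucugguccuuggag
mmu-miR-291a-3p: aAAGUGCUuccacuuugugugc
mmu-miR-294-3p: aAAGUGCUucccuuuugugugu
mmu-miR-295-3p: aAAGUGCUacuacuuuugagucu
mmu-miR-302b-3p: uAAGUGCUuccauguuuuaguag
mmu-miR-302d-3p: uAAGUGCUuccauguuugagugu

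The longest annotated 3′ UTR of each gene (GENCODE M21, GRCm38) was searched on the sense strand for the reverse complement of these seeds. For the shared miR-290 and miR-302 seed (AGCACTT), Irf9 held 2 matches in 999 bases and Stat2 held 1 in 1476 bases, and Mavs, Ddx58, Irf1, Irf3 and Bst2 held none. Among 3′ UTRs of like length, 11.2% held this match at the length of Irf9 and 16.4% at that of Stat2. For miR-673-5p (GCTGTGA) none of the 7 held a match, against 13.9% of 2390 UTRs of the length of Mavs. A search for 6 bases (CTGTGA, bases 2 to 7 of miR-673-5p) was added after that result was seen. It found 2 matches near the end of the 1236-base UTR of Mavs, 2 in Irf9 and 1 in Irf1, and 50.1% of UTRs of the length of Mavs hold such a match. The matches, in capitals with their flanks, are shown for the sequences that the levels of Mavs, Irf9 and Stat2 can be read against. All lie on the plus strand, and a match describes letters and not a working site.
Mavs, 6 bases, chr2:131247844-131247869: cttttcttacCTGTGAgatggggtga
Mavs, 6 bases, chr2:131247934-131247959: atattctcacCTGTGAgatggaaagt
Irf9, 7 bases, chr14:55609195-55609221: ttgtaatctcAGCACTTggaagacaga
Irf9, 7 bases, chr14:55609368-55609394: tctaaatctaAGCACTTtatatatttt
Stat2, 7 bases, chr10:128292114-128292140: atggtttctgAGCACTTgggaattact

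Promoters were read from RefSeq (GRCm38.p6), as 300 bases from 250 before to 50 after the gene start, for all 7 genes in 9 windows. They were searched on both strands for the ISRE core (GAAA and GAAA parted by any 2 bases), bound by STAT2 with IRF9 and by IRF factors, and for the core of the gamma-activated site, GAS (TTC and GAA parted by any 3 bases). Bst2 held 2 ISRE cores, starting 130 and 124 bases before the start and overlapping each other, and a GAS core at 136 bases before the start that overlaps the first of them. Stat2 held 1 ISRE core at 222 bases before the start, Ddx58 held 1 that begins 2 bases after it, and the first of the Irf1 promoters held 1 GAS core at 90 bases before it. Mavs, Irf3 and Irf9 held neither. Of 32851 mouse promoters of this length, 3.4% held an ISRE core and 8.3% a GAS core. The promoters of Bst2 and Stat2 are printed because these genes had the largest decrease and increase among the 7 in Trim71KO, with the matched letters in capitals.
Bst2, chr8:71537423-71537722, minus strand: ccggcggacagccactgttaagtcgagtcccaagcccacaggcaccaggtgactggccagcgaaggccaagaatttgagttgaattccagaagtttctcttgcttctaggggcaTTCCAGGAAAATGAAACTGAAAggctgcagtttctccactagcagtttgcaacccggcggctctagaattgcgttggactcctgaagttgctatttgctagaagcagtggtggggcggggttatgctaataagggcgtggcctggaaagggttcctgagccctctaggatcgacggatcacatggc
Stat2, chr10:128270248-128270547, plus strand: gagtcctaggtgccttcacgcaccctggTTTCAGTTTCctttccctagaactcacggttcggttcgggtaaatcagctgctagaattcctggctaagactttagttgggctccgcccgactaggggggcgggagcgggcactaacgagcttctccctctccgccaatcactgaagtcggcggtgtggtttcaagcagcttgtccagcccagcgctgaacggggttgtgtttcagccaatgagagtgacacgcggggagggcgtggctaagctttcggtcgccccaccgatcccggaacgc

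In unedited cells all 7 genes were expressed at low to moderate levels. Per length, W cells held 14.3 ± 1.03 RPKM of Bst2 (SD, n = 3, as for all values with ±), 10.5 ± 0.643 of Irf3, 9.46 ± 0.350 of Ddx58, 5.69 ± 0.334 of Mavs, 5.06 ± 0.0685 of Irf1, 2.64 ± 0.150 of Irf9 and 2.35 ± 0.0860 of Stat2. In that order, only the libraries of Irf3 and Ddx58 overlapped in RPKM, and the other neighbours stood apart. In T6B_MUT cells the order was Irf3 at 8.56 ± 0.546 RPKM, Ddx58 at 6.92 ± 0.0356, Mavs at 5.66 ± 0.223, Bst2 at 5.18 ± 0.318, Irf1 at 4.54 ± 0.290, Stat2 at 2.93 ± 0.0848 and Irf9 at 2.83 ± 0.194. There the ranges of Bst2 and Irf1, and of Stat2 and Irf9, overlapped. In Trim71KO_empty Bst2 was the lowest of the 7, at 2.44 ± 0.205 RPKM. The plot of level by library gives the same genes on the CPM scale, which is used below to compare a gene with itself.

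**Figure D1:**
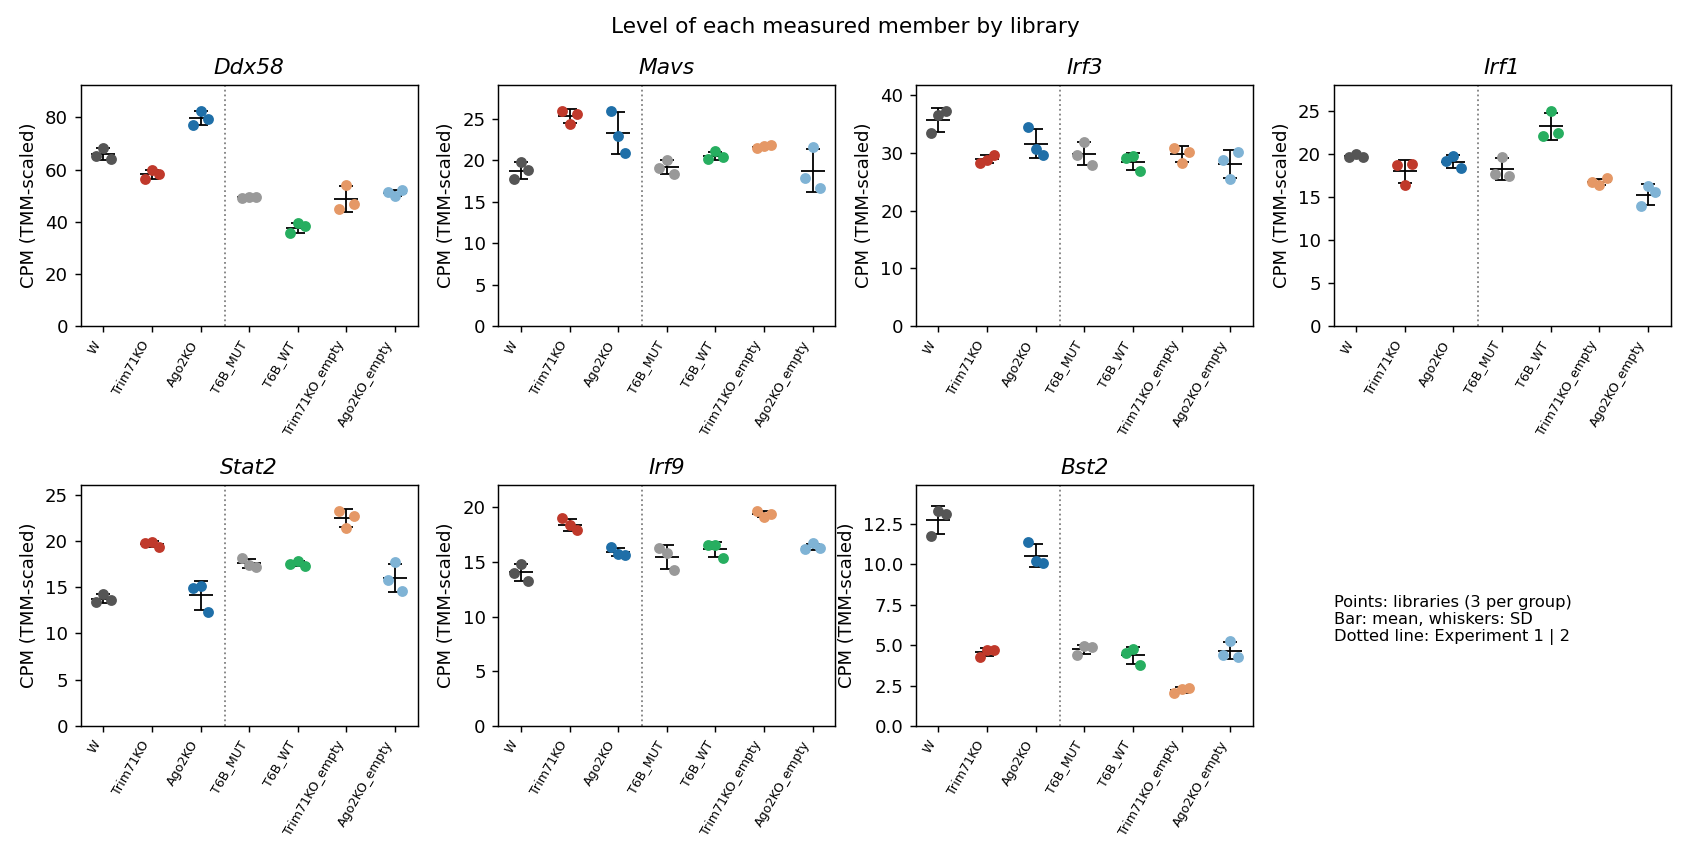
Level of each measured gene in CPM scaled by TMM (y axis, from 0) in the 7 groups (x axis); points are libraries, bars the mean and whiskers the SD of 3 libraries, and the dotted line parts Experiment 1 from Experiment 2. Bst2 lies at 4.29 to 4.73 CPM in Trim71KO against 11.7 to 13.3 in W, and Mavs lies above W in all 3 libraries of Trim71KO and of Ago2KO.

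Of the 5 comparisons with a control, Trim71KO against W had the most calls among the 7 genes. Trim71KO differed from W in 6 of 7 genes (edgeR quasi-likelihood test, adjusted p under 0.05 over all genes): Stat2, Mavs and Irf9 rose, and Bst2, Irf3 and Ddx58 fell. In that comparison 32.6% of all 21210 genes tested were called. Ago2KO differed from W in 3 of 7 (Mavs and Ddx58 higher, Bst2 lower), beside 18.0% of all genes. T6B_WT differed from T6B_MUT in 2 of 7 (Irf1 higher, Ddx58 lower), beside 16.0%. Trim71KO_empty differed from T6B_MUT in 3 of 7 (Stat2 and Irf9 higher, Bst2 lower), beside 27.8%. The libraries labelled Ago2KO_empty differed from T6B_MUT in 1 of 7 (Irf1 lower), beside 28.8%, and in 2 of 7 without replicate 2, where Stat2 was also lower and 23.7% of all genes were called. Between the knockouts themselves, 4 of 7 differed in Experiment 1 (beside 34.2%) and 3 of 7 in Experiment 2 (beside 31.6%). Without Ago2KO_empty replicate 2 the latter was 4 of 7 (beside 27.6%), with Mavs added. No gene of the 7 was called in the same direction in all 5 comparisons with a control. Comparisons within an experiment share their control libraries.

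**Figure D2:**
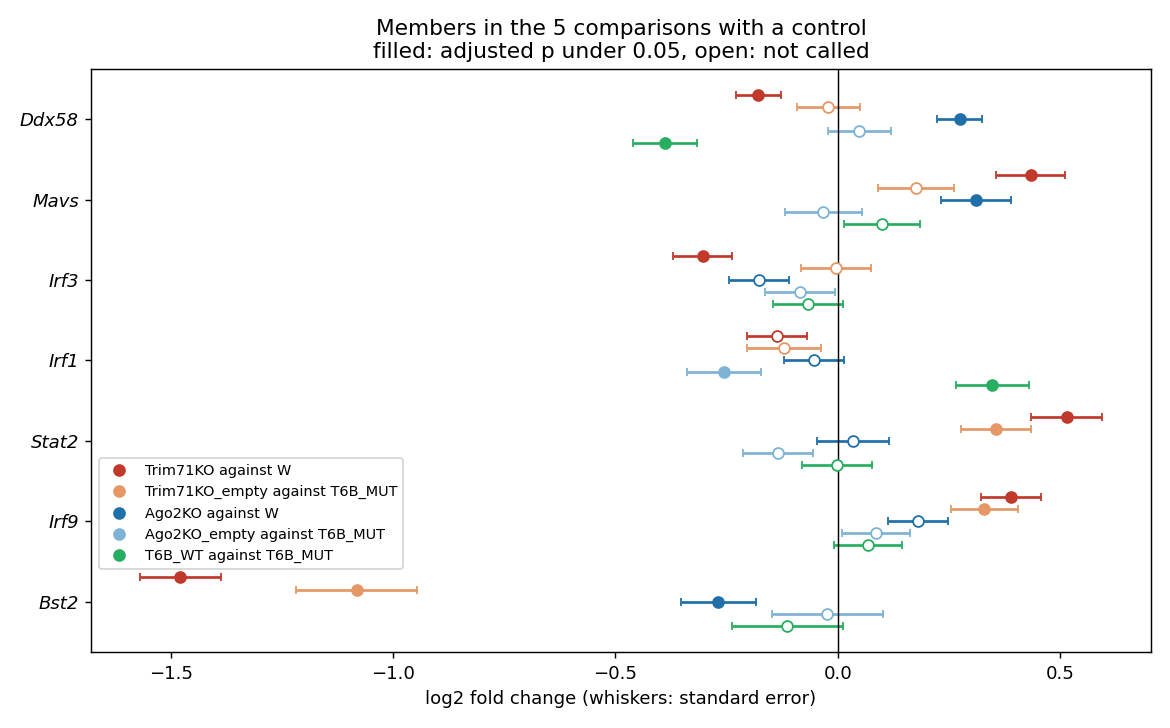
Log2 fold change (x axis) of the 7 genes (y axis) in the 5 comparisons with a control; whiskers are the standard error from the edgeR fit, filled points have an adjusted p under 0.05 and open points do not. Bst2 lies at -1.48 and -1.08 in the comparisons of Trim71 loss, Stat2 and Irf9 lie to the right in both, and Ddx58 lies to the right in Ago2KO and to the left with T6B_WT.

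Ddx58 (ENSMUSG00000040296, chr4:40203773-40239828, minus strand, protein-coding) encodes the sensor RIG-I. Its levels were 65.2, 68.4 and 64.0 CPM in W, 56.4, 59.7 and 58.4 CPM in Trim71KO, and 77.1, 82.5 and 79.3 CPM in Ago2KO. The 3 groups did not overlap: Ago2KO was highest in every library and Trim71KO lowest. Ddx58 rose by 0.27 ± 0.05 (log2 fold change ± SE, as below) in Ago2KO (edgeR adjusted p = 0.0015). In Trim71KO it was lower by a log2 fold change of -0.18 ± 0.05 (edgeR adjusted p = 0.0132), a call that was lost without Trim71KO replicate 1 (-0.16, adjusted p = 0.072) or without W replicate 2 (-0.15, adjusted p = 0.0757). Between the knockouts the log2 fold change was -0.45 ± 0.05 (Trim71KO against Ago2KO, edgeR adjusted p = 7.09e-06).

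With the T6B peptide Ddx58 went the other way from Ago2KO. T6B_WT held 35.7, 39.4 and 38.2 CPM and T6B_MUT held 49.1, 49.7 and 49.5 CPM. Every T6B_WT library lay below every T6B_MUT library. Ddx58 fell by 0.39 on the log2 scale (log2 fold change -0.39 ± 0.07, edgeR adjusted p = 0.000892). The T6B change minus the Ago2KO change was -0.66 ± 0.09, and this difference itself passed the test in a fit of all 21 libraries (edgeR adjusted p = 2.34e-05). Trim71KO_empty, at 45.0, 54.2 and 46.9 CPM, spanned the T6B_MUT level (log2 fold change -0.02, 95% interval -0.16 to 0.12). The libraries labelled Ago2KO_empty held 51.5, 49.7 and 52.1 CPM, close above the control libraries (0.05, 95% interval -0.09 to 0.19, edgeR adjusted p = 0.642, and 0.05 without replicate 2). The 95% intervals rest on the SE and a normal approximation, so they are narrower than the F test implies.

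Mavs (ENSMUSG00000037523, chr2:131234063-131248025, plus strand, protein-coding), the adaptor, was higher in both knockouts of Experiment 1. It stood at 17.7, 19.8 and 18.8 CPM in W, at 26.0, 24.4 and 25.6 CPM in Trim71KO, and at 26.0, 23.0 and 20.9 CPM in Ago2KO. Neither knockout overlapped W, and the Ago2KO libraries were spread more widely than those of Trim71KO. Mavs rose by 0.43 ± 0.08 in Trim71KO (edgeR adjusted p = 0.000613) and by 0.31 ± 0.08 in Ago2KO (edgeR adjusted p = 0.0125). Without Ago2KO replicate 1 the value for Ago2KO was 0.22 and was not called (edgeR adjusted p = 0.0636). The knockouts did not differ by the test (0.12, 95% interval -0.03 to 0.28, edgeR adjusted p = 0.251), and without Ago2KO replicate 1 they did (0.21, edgeR adjusted p = 0.046).

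In Experiment 2 Mavs was called in no comparison with T6B_MUT. T6B_MUT held 19.1, 20.0 and 18.4 CPM, T6B_WT 20.2, 21.1 and 20.4 CPM, and Trim71KO_empty 21.5, 21.7 and 21.9 CPM. The libraries of both groups lay above those of T6B_MUT without overlap, by less than the test resolves. With T6B_WT the log2 fold change was 0.10 (95% interval -0.07 to 0.27, edgeR adjusted p = 0.494). For Trim71KO_empty it was 0.18 (95% interval by normal approximation 0.01 to 0.34, edgeR unadjusted p = 0.0532 and adjusted p = 0.135). This interval leaves out 0 although the unadjusted p of the F test was above 0.05. The libraries labelled Ago2KO_empty held 17.9, 21.7 and 16.7 CPM. Replicate 2, whose Ago2 level was 167 CPM, was the highest of the 3, and the others lay below every T6B_MUT library. Their log2 fold change was -0.03 (95% interval -0.20 to 0.14, edgeR adjusted p = 0.805), and -0.16 without replicate 2 (edgeR adjusted p = 0.141). Trim71KO_empty was above them by 0.21 (edgeR adjusted p = 0.0725), and without replicate 2 by 0.33, which was called (edgeR adjusted p = 0.0033). With all libraries it was also called under upper-quartile scaling (adjusted p = 0.0396), with no low-count filter (0.0494) and with all 21 libraries fitted (0.0412).

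Irf3 (ENSMUSG00000003184, chr7:44997648-45002848, plus strand) is the constitutively expressed factor downstream of MAVS. It overlaps Bcl2l12 on the other strand, and its count is uncertain because the sources used here do not say whether strand was used. Irf3 stood at 33.4, 36.5 and 37.3 CPM in W, 28.2, 28.8 and 29.7 CPM in Trim71KO, and 34.4, 30.7 and 29.6 CPM in Ago2KO. The Trim71KO libraries lay below all W libraries, while those of Ago2KO reached into the W range. Irf3 fell by 0.30 in Trim71KO (log2 fold change -0.30 ± 0.07, edgeR adjusted p = 0.00274). In Ago2KO the value was -0.18 ± 0.07 (edgeR adjusted p = 0.0834), which passed the test without Ago2KO replicate 1 (-0.25, adjusted p = 0.0226), without W replicate 1 (-0.23, adjusted p = 0.0374) and with upper-quartile scaling (-0.20, adjusted p = 0.0439). In Experiment 2 no comparison called Irf3, and its 12 libraries lay between 25.4 and 32.0 CPM with overlap between all groups.

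Irf1 (ENSMUSG00000018899, chr11:53770014-53778374, plus strand), an inducible activator of interferon genes and of antigen presentation, overlaps Gm17334 on the other strand. In Experiment 1 it stood at 19.7, 20.1 and 19.7 CPM in W, 18.8, 16.5 and 18.8 CPM in Trim71KO and 19.2, 19.8 and 18.4 CPM in Ago2KO. Neither knockout was called (-0.14, edgeR adjusted p = 0.142, and -0.05, adjusted p = 0.654). With T6B_WT it was 22.2, 25.1 and 22.5 CPM against 17.7, 19.7 and 17.4 CPM in T6B_MUT, so that the groups did not overlap. Irf1 rose by 0.35 ± 0.08 there (edgeR adjusted p = 0.00634), with replicate 2 of T6B_WT the highest. Without that library the value was 0.28 and was not called (edgeR adjusted p = 0.0572).

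The T6B change of Irf1 was larger than its Ago2KO change by 0.40 ± 0.11 (edgeR adjusted p = 0.0337). This call was lost in 7 of 12 fits that each left out 1 of the libraries involved (adjusted p up to 0.127): replicates 1 and 3 of Ago2KO, 1 and 3 of T6B_MUT, 2 of T6B_WT, and 2 and 3 of W. In the libraries labelled Ago2KO_empty Irf1 was 14.0, 16.3 and 15.6 CPM, below every T6B_MUT library. It was lower by a log2 fold change of -0.26 ± 0.08 (edgeR adjusted p = 0.0278) and of -0.32 without replicate 2 (adjusted p = 0.0139). That call was lost without Ago2KO_empty replicate 1 (-0.21, adjusted p = 0.109) or without T6B_MUT replicate 2 (-0.22, adjusted p = 0.0973). Trim71KO_empty held 16.8, 16.4 and 17.2 CPM and was not called (-0.12, edgeR adjusted p = 0.3).

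Stat2 (ENSMUSG00000040033, chr10:128270559-128292849, plus strand), a transcription factor of type I interferon signalling, was higher in both Trim71 knockout groups. It was 13.4, 14.3 and 13.6 CPM in W and 19.8, 19.9 and 19.3 CPM in Trim71KO. In T6B_MUT it was 18.2, 17.5 and 17.1 CPM, and in Trim71KO_empty 23.3, 21.5 and 22.7 CPM. Both pairs of groups stood apart without overlap. Stat2 rose by 0.51 ± 0.08 in Trim71KO (edgeR adjusted p = 0.000172) and by 0.36 ± 0.08 in Trim71KO_empty (edgeR adjusted p = 0.00215).

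Without Trim71 loss, Stat2 passed the test against its control in no comparison that used all libraries. Ago2KO held 14.9, 15.2 and 12.3 CPM (0.03, 95% interval -0.13 to 0.19) and T6B_WT 17.5, 17.8 and 17.3 CPM (-0.00, 95% interval -0.16 to 0.15). Both overlapped their controls. The libraries labelled Ago2KO_empty held 15.8, 17.7 and 14.6 CPM (-0.13, edgeR adjusted p = 0.212), and without replicate 2 they were called lower (-0.23, edgeR adjusted p = 0.0471). Trim71 and Ago2 knockouts differed in Stat2 in both experiments, by 0.48 ± 0.08 (edgeR adjusted p = 0.000276) and 0.49 ± 0.08 (adjusted p = 0.000104, and 0.58 without replicate 2).

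Irf9 (ENSMUSG00000002325, chr14:55603571-55610030, plus strand), which gives the complex it forms with STAT2 its DNA binding, moved beside Stat2. It overlaps Rnf31 on the same strand, so its count is uncertain. Irf9 stood at 14.0, 14.9 and 13.3 CPM in W, 19.0, 18.3 and 17.9 CPM in Trim71KO and 16.4, 15.7 and 15.7 CPM in Ago2KO. Both knockouts lay above W without overlap. It rose by 0.39 ± 0.07 in Trim71KO (edgeR adjusted p = 0.000428), while the Ago2KO value of 0.18 ± 0.07 was not called (edgeR adjusted p = 0.0837). The knockouts differed by 0.21 (edgeR adjusted p = 0.0255), a call that was lost without Ago2KO replicate 2 or 3 or without Trim71KO replicate 1 or 2 (adjusted p 0.0634 to 0.0982).

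In Experiment 2 Irf9 was 16.3, 15.8 and 14.2 CPM in T6B_MUT and 19.7, 19.1 and 19.4 CPM in Trim71KO_empty. The groups stood apart, and Irf9 rose by 0.33 ± 0.08 (edgeR adjusted p = 0.00309). T6B_WT held 16.6, 16.6 and 15.4 CPM (0.07, 95% interval -0.08 to 0.22) and the libraries labelled Ago2KO_empty 16.2, 16.7 and 16.2 CPM (0.08, 95% interval -0.06 to 0.23, and 0.05 without replicate 2). Both overlapped T6B_MUT. Irf9 and Stat2, which held the miR-290 and miR-302 seed matches shown above, were called in neither Ago2KO nor T6B_WT. Among genes whose log2 CPM averaged 2 or more, those with a 7-base match to this seed numbered 1865 in Experiment 1 and 1906 in Experiment 2, against 8448 and 8615 without. In the order Trim71KO, Ago2KO, T6B_WT, Trim71KO_empty and the libraries labelled Ago2KO_empty, their median log2 fold changes were 0.04, 0.07, 0.05, 0.04 and 0.13 with a match and 0.00, -0.01, -0.02, -0.01 and -0.01 without. For the 7-base match of miR-673-5p, which Mavs does not hold, the medians were 0.05, 0.03, 0.03, 0.05 and 0.09 with and 0.00, -0.00, -0.01, -0.01 and -0.00 without. Genes with either match thus had the higher median in all 5 comparisons, those of Trim71 loss included, and the differences were not tested.

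Bst2 (ENSMUSG00000046718, chr8:71534255-71537456, minus strand, protein-coding), the effector, had the largest change of the 7. It stood at 11.7, 13.3 and 13.1 CPM in W, 4.29, 4.73 and 4.68 CPM in Trim71KO and 11.4, 10.2 and 10.1 CPM in Ago2KO. The libraries of Trim71KO lay far below all others of the experiment, and those of Ago2KO just below W. Bst2 fell by 1.48 on the log2 scale in Trim71KO (-1.48 ± 0.09, a fold of 0.359, edgeR adjusted p = 2.41e-08). In Ago2KO the log2 fold change was -0.27 ± 0.08 (edgeR adjusted p = 0.0388). That call was lost without replicate 2 or 3 of either group (adjusted p 0.116 to 0.151), with all 21 libraries fitted together (0.0523) and with replicate number as a block (0.0588).

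The fall with Trim71 loss was seen again with empty plasmid, at a lower level of the gene. Bst2 was 4.40, 4.94 and 4.87 CPM in T6B_MUT and 2.03, 2.31 and 2.37 CPM in Trim71KO_empty, which rest on 79 to 85 counts per library. All Trim71KO_empty libraries lay below all of T6B_MUT, and Bst2 fell by 1.08 (-1.08 ± 0.14, a fold of 0.472, edgeR adjusted p = 9.33e-06). T6B_WT held 4.54, 4.76 and 3.80 CPM (-0.11, 95% interval -0.36 to 0.13) and the libraries labelled Ago2KO_empty 4.41, 5.28 and 4.29 CPM (-0.02, 95% interval -0.27 to 0.22, and -0.14 without replicate 2). Both overlapped T6B_MUT. Trim71 knockouts were below Ago2 knockouts in both experiments, by -1.21 ± 0.09 (edgeR adjusted p = 1.79e-07) and -1.06 ± 0.14 (adjusted p = 9.99e-06, and -0.95 without replicate 2). Primitive endoderm markers were called lower in Trim71KO (5 of 5), Ago2KO (5 of 5), Trim71KO_empty (4 of 5) and the libraries labelled Ago2KO_empty (3 of 5, and 4 of 5 without replicate 2), and 0 of 5 with T6B_WT. Their part in the Bst2 values was not tested.

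Bst2 lies on chromosome 8, whose genes were higher as a whole in Trim71KO. The median log2 fold change of its 1060 genes tested was 0.19 in Trim71KO and of its 1053 genes 0.09 in Trim71KO_empty, against -0.00 and 0.00 for all genes. Relative to that median, Bst2 stood at -1.67 and -1.17. The Bst2 change had the opposite sign to the median of all genes tested on the chromosome. What part the shift of the chromosome had in the Bst2 values was not tested.

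**Figure D3:**
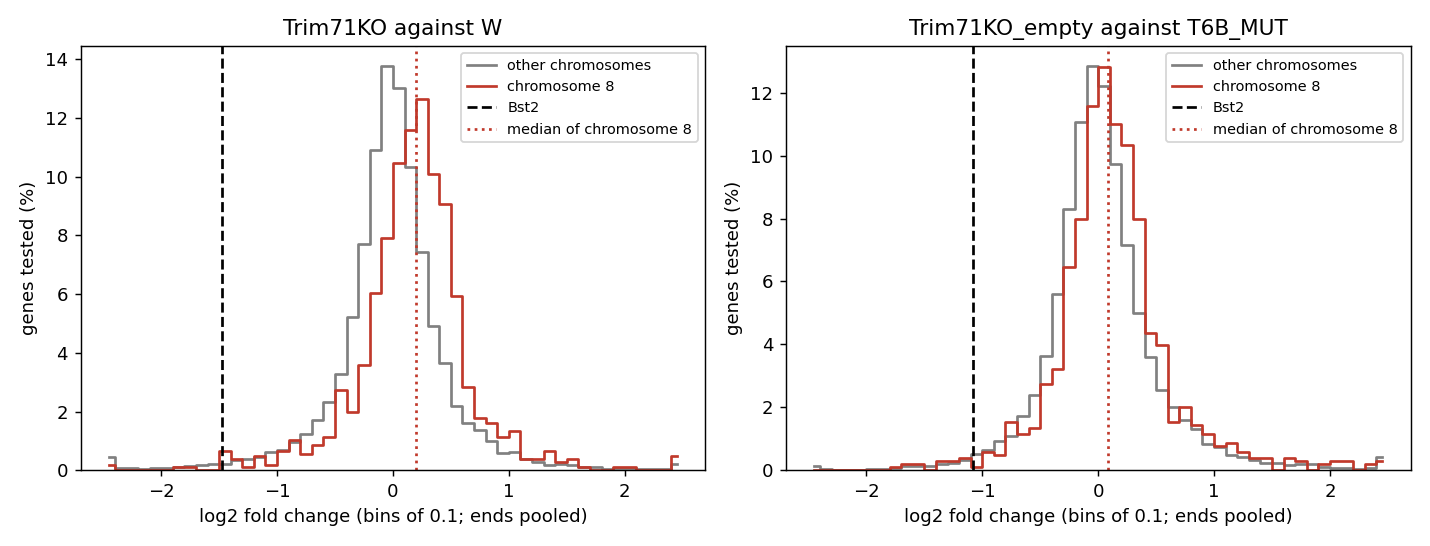
Distribution of log2 fold changes (x axis, bins of 0.1) as percent of genes tested (y axis) for chromosome 8 and for all other chromosomes, in Trim71KO against W (left) and Trim71KO_empty against T6B_MUT (right). The dashed line marks Bst2, at -1.48 and -1.08, far to the left of the dotted chromosome medians of 0.19 and 0.09.

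The effects of the same genetic loss were next compared between experiments, as the Experiment 1 change minus the Experiment 2 change in a fit of all 21 libraries. For Trim71 loss, 0 of 7 genes differed by edgeR (beside 10.1% of all genes) and 0 by DESeq2, and 3 had an unadjusted p under 0.05: Irf3 (-0.30, adjusted p = 0.0774), Bst2 (-0.40, adjusted p = 0.123) and Mavs (0.26, adjusted p = 0.182). The Irf3 difference passed the test in 3 fits that left out 1 library each: T6B_MUT replicate 2 (adjusted p = 0.034), Trim71KO_empty replicate 2 (0.0397) or W replicate 1 (0.0291). For Ago2 loss, 0 of 7 differed by edgeR (beside 2.13%) and 0 by DESeq2, and 2 had an unadjusted p under 0.05: Mavs (0.35, adjusted p = 0.124) and Ddx58 (0.24, adjusted p = 0.187). Without Ago2KO_empty replicate 2, the Mavs difference was 0.46 and was called (edgeR adjusted p = 0.0217). For the T6B change minus the Ago2KO change, Ddx58 and Irf1 differed as given above, 2 of 7 beside 3.16% of all genes.

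The 7 genes did not move as 1 group. Over the 21 libraries, with log2 CPM centred on the mean of each experiment, Stat2 and Irf9 went together (Pearson r = 0.84), and Mavs went with Irf9 (0.77) and Stat2 (0.76). Bst2 ran against Irf9 (-0.88), Stat2 (-0.88) and Mavs (-0.63), and Ddx58 against Irf1 (-0.53). These values describe 21 libraries in 7 groups, which share their cells of origin and controls. Among 12878 named genes above the same level, the most like Mavs were Ndrg4 (0.89), Ptgfrn (0.88) and Arhgef10 (0.86), and the most like Ddx58 were Icosl (0.82), Mtfr1l (0.81) and Cers5 (0.81). Irf1 was most like Mmp14 (0.89), Fam174b (0.87) and Atg4b (0.85), and Irf3 most like Tarbp2 (0.87), Ubb-ps (0.86) and Hdgfl2 (0.85). Irf9 was most like Atp8b2 (0.94), Ampd3 (0.93) and the pluripotency factor Nanog (0.93). Stat2 was most like Sorl1 (0.96), Ndst1 (0.93) and Phf2 (0.93), and Bst2 most like the DNA methyltransferase Dnmt3a (0.97), Glipr2 (0.97) and Cacnb3 (0.97).

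The rest of the pathway was read from 5 lists of 118 names, of which 92 genes were in the table and the others were not analysed here. Among 31 other genes of RNA sensing and MAVS signalling, 9 rose and 3 fell in Trim71KO, 5 rose and 1 fell in Ago2KO, 6 rose and 0 fell with T6B_WT, 8 rose and 2 fell in Trim71KO_empty, and 4 rose and 1 fell in the libraries labelled Ago2KO_empty (4 and 3 without replicate 2). That is 38.7%, 19.4%, 19.4%, 32.3% and 16.1% of the list, beside 32.6%, 18.0%, 16.0%, 27.8% and 28.8% of all genes in the same comparisons. Its median log2 fold changes were 0.09, 0.04, 0.07, 0.15 and 0.06, beside -0.00, -0.00, 0.01, 0.00 and 0.03 for all genes. Zc3hav1, which encodes the zinc-finger antiviral protein ZAP, was called higher in all 5 comparisons, by 0.78 ± 0.05, 0.86 ± 0.05, 0.67 ± 0.08, 1.04 ± 0.08 and 0.98 ± 0.08 in the same order (edgeR adjusted p at most 8.97e-06). Without replicate 2 the last value was again 0.98.

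Among the other genes of that list, 2 were called higher in 4 of the 5 comparisons. Ikbkb, an inhibitor-of-NF-κB kinase that lies on chromosome 8, rose in Trim71KO (0.61 ± 0.06), Ago2KO (0.32 ± 0.06), Trim71KO_empty (0.56 ± 0.08) and the libraries labelled Ago2KO_empty (0.31 ± 0.08, and 0.23 without replicate 2). Ripk1, a kinase that acts below MAVS and death receptors, rose in Trim71KO (0.27 ± 0.05), with T6B_WT (0.24 ± 0.07), in Trim71KO_empty (0.44 ± 0.07) and in the libraries labelled Ago2KO_empty (0.25 ± 0.07). That last call was lost without replicate 2 (0.17, edgeR adjusted p = 0.103). Ripk1 overlaps Gm17084 on the same strand, so its count is uncertain. Fadd, an adaptor shared with death receptors, rose in Ago2KO (0.43 ± 0.10) and with T6B_WT (0.40 ± 0.12) and fell in Trim71KO (-0.34 ± 0.10). Unc93b1, which escorts endosomal Toll-like receptors, fell in Trim71KO (-0.70 ± 0.14), and so did Tbkbp1 (-0.44 ± 0.12). In Trim71KO_empty the kinase gene Ikbke rose (0.81 ± 0.13) and Rnf135, a RIG-I ubiquitin ligase, fell (-0.56 ± 0.19). Chuk, another inhibitor-of-NF-κB kinase, rose in Ago2KO (0.23 ± 0.06) and in the libraries labelled Ago2KO_empty (0.32 ± 0.07, and 0.35 without replicate 2). Traf3, a ubiquitin ligase that MAVS recruits, rose in Trim71KO (0.38 ± 0.06) and Trim71KO_empty (0.30 ± 0.08) and fell in the libraries labelled Ago2KO_empty (-0.33 ± 0.08, and -0.40 without replicate 2).

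Of the receptor and signalling genes, 6 of 17 rose and 1 fell in Trim71KO, and the same counts held in Ago2KO. With T6B_WT 4 of 18 rose and 1 fell, in Trim71KO_empty 6 rose and 1 fell, and in the libraries labelled Ago2KO_empty 5 rose and 3 fell (3 and 3 without replicate 2). The shares called were 41.2%, 41.2%, 27.8%, 38.9% and 44.4%, beside 32.6%, 18.0%, 16.0%, 27.8% and 28.8% of all genes. The median log2 fold changes were 0.15, 0.12, 0.08, 0.19 and 0.09. Jak2, a kinase of interferon gamma signalling, rose in Trim71KO (0.29 ± 0.10, edgeR adjusted p = 0.0451), in Ago2KO (0.42 ± 0.10, adjusted p = 0.01), with T6B_WT (0.59 ± 0.10, adjusted p = 0.000291) and in the libraries labelled Ago2KO_empty (0.40 ± 0.10, adjusted p = 0.00472, and 0.34 without replicate 2). Jak1, a kinase of type I and II interferon receptors, rose in the same comparisons, by 0.38 ± 0.05, 0.21 ± 0.06, 0.33 ± 0.09 and 0.33 ± 0.09. Ripk1 and Jak1 were picked out after their values were seen. For Jak1 the last call was lost without replicate 2 (0.16, edgeR adjusted p = 0.0723). Ifngr2, a chain of the interferon gamma receptor, rose in Trim71KO (0.59 ± 0.13) and Trim71KO_empty (0.79 ± 0.14) and fell in Ago2KO (-0.42 ± 0.14). Il10rb, a receptor chain shared with interferon lambda, rose in Trim71KO (1.98 ± 0.22) and Trim71KO_empty (1.18 ± 0.13). It overlaps a gene model on the same strand, so its count is uncertain.

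Interferon-stimulated effectors moved in both directions when Trim71 was lost. Of 25 tested, 10 rose and 6 fell in Trim71KO, 4 rose and 1 fell in Ago2KO, 7 rose and 1 fell with T6B_WT, 9 rose and 5 fell in Trim71KO_empty, and 6 rose and 2 fell in the libraries labelled Ago2KO_empty (6 and 3 of 26 without replicate 2). The shares called were 64.0%, 20.0%, 32.0%, 56.0% and 32.0%, beside 32.6%, 18.0%, 16.0%, 27.8% and 28.8% of all genes. The median log2 fold changes were 0.15, 0.07, 0.17, 0.27 and 0.05. Xaf1, a pro-apoptotic interferon-induced gene, was called higher in all 5 comparisons, by 1.42 ± 0.08 in Trim71KO, 0.89 ± 0.08 in Ago2KO, 0.71 ± 0.10 with T6B_WT, 1.33 ± 0.10 in Trim71KO_empty and 0.54 ± 0.10 in the libraries labelled Ago2KO_empty (0.65 without replicate 2). Oas2, an oligoadenylate synthetase, rose in Ago2KO (1.14 ± 0.17), with T6B_WT (0.94 ± 0.16) and in the libraries labelled Ago2KO_empty (0.87 ± 0.16, and 0.77 without replicate 2). Oas3 and Parp14 fell in Trim71KO (-1.08 ± 0.16 and -1.06 ± 0.12), and Parp14 also in Trim71KO_empty (-0.39 ± 0.12). Parp14 overlaps Gm49730 on the same strand, so its count is uncertain. The restriction factor genes Ifitm1 and Ifitm3 fell in Trim71KO (-1.03 ± 0.09 and -0.54 ± 0.08) and Trim71KO_empty (-1.85 ± 0.15 and -1.06 ± 0.09). With T6B_WT both rose (0.45 ± 0.13 and 0.61 ± 0.09), and Ifitm3 rose in Ago2KO (0.53 ± 0.08) and in the libraries labelled Ago2KO_empty (0.48 ± 0.09, and 0.53 without replicate 2).

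The lists of DNA sensing and antigen presentation were smaller. Among 7 DNA-sensing genes, 0 rose and 1 fell in Trim71KO, 1 rose and 2 fell in Ago2KO, 1 rose with T6B_WT, 2 rose and 2 fell in Trim71KO_empty, and 1 rose and 1 fell in the libraries labelled Ago2KO_empty (1 and 0 without replicate 2). The shares called were 14.3%, 42.9%, 14.3%, 57.1% and 28.6%, beside 32.6%, 18.0%, 16.0%, 27.8% and 28.8% of all genes. The median log2 fold changes were -0.10, -0.06, 0.06, -0.07 and 0.04. Cgas, the cytosolic DNA sensor, fell in Trim71KO (-0.37 ± 0.09) and Trim71KO_empty (-0.39 ± 0.11) and rose in Ago2KO (0.29 ± 0.08). Among 9 antigen presentation genes, 1 rose and 4 fell in Trim71KO, 0 rose and 2 fell in Ago2KO, 3 rose and 1 fell with T6B_WT, 1 rose and 3 fell in Trim71KO_empty, and 3 rose and 2 fell in the libraries labelled Ago2KO_empty (4 and 1 without replicate 2). The shares called were 55.6%, 22.2%, 44.4%, 44.4% and 55.6%, beside the same shares of all genes as for DNA sensing. The median log2 fold changes were -0.48, 0.04, 0.36, -0.02 and 0.17. The peptide transporter gene Tap1 fell in Trim71KO (-0.89 ± 0.15) and rose with T6B_WT (0.70 ± 0.11) and in the libraries labelled Ago2KO_empty (0.51 ± 0.11, and 0.52 without replicate 2). B2m, the light chain of class I molecules, rose with T6B_WT (0.69 ± 0.10) and in the libraries labelled Ago2KO_empty (0.29 ± 0.11, and 0.37 without replicate 2). Psmb10 rose in Trim71KO (0.18 ± 0.06) and fell in Ago2KO (-0.26 ± 0.06), with T6B_WT (-0.44 ± 0.11) and in Trim71KO_empty (-0.55 ± 0.11). It also fell in the libraries labelled Ago2KO_empty (-0.74 ± 0.11, and -0.73 without replicate 2). H2-K1 was called lower in 4 of the 5 comparisons, such as Ago2KO (-0.38 ± 0.09). Its fall in the libraries labelled Ago2KO_empty (-0.30) was not called without replicate 2 (-0.21, edgeR adjusted p = 0.0674). Tap1 overlaps Psmb9, B2m overlaps Patl2 and Cgas overlaps Gm8093, each on the other strand, so these counts are uncertain.

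**Figure D4:**
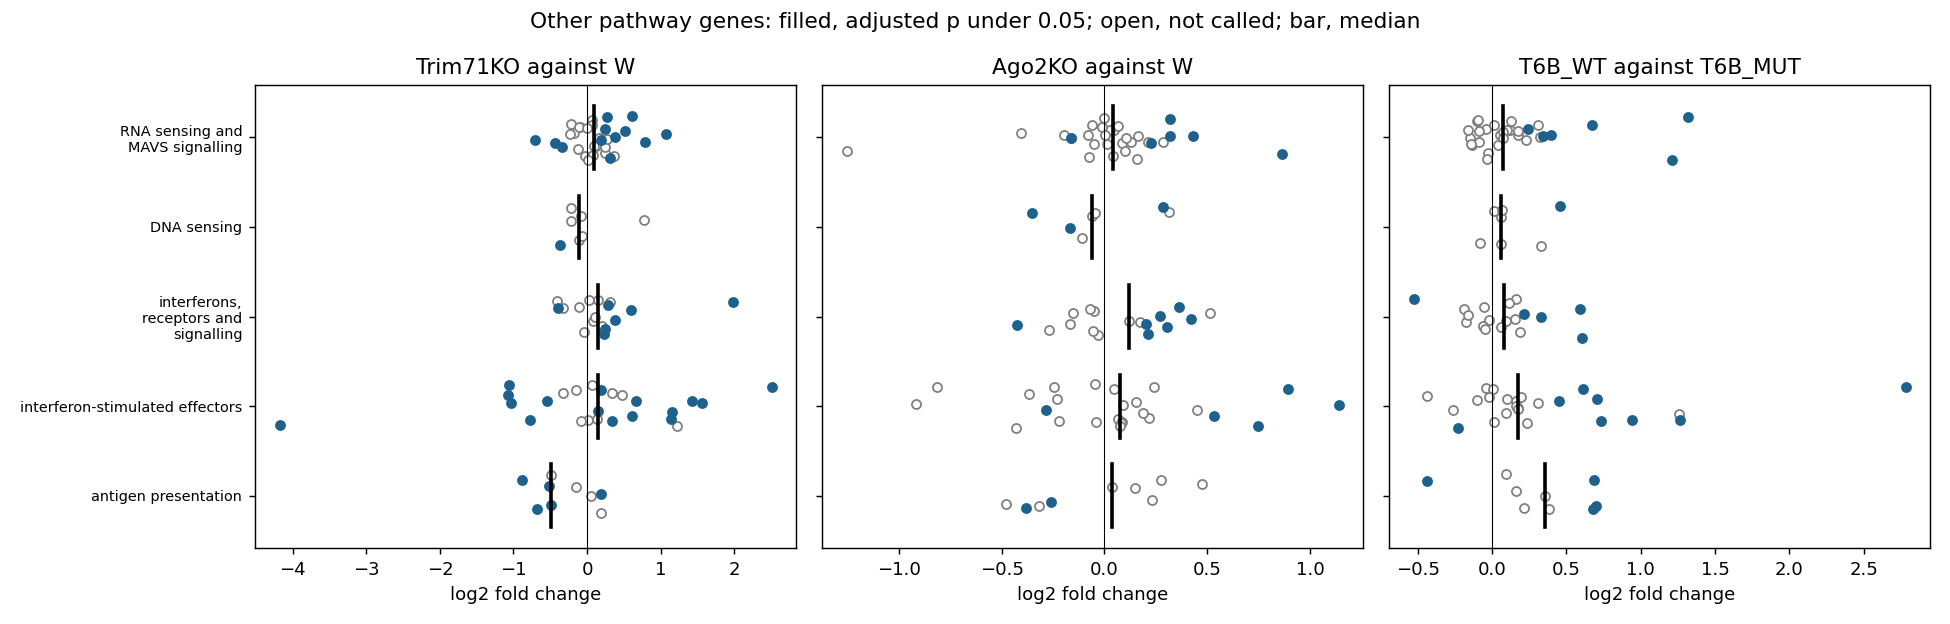
Log2 fold change (x axis, with its own scale in each panel) of the other pathway genes in 5 lists (y axis) for Trim71KO against W, Ago2KO against W and T6B_WT against T6B_MUT; points are genes, filled where the edgeR adjusted p is under 0.05, and bars are list medians. The effector list is the widest in Trim71KO, with 10 genes called higher and 6 lower. In that comparison 64.0% of the effector list and 32.6% of all genes were called.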

How the data were processed

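The authors deposited 1 table of 22512 genes with raw read counts and RPKM for each of 21 libraries. The deposited counts are raw and whole, without normalization, and the authors scaled the RPKM by gene length and library size, per the file headers. Per the submitters' processing notes, bcl2fastq 2.17, STAR 2.7.3a and the builds GRCm38 and mm10 were used. The use of strand in counting was not given in the sources used here. The lowest total of a gene over all libraries was 17 counts.

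Counts were tested with edgeR 4.0.16 in R 4.3.3 (quasi-likelihood F test, robust dispersion, TMM scaling, filterByExpr with a minimum count of 10, Benjamini-Hochberg adjustment over all genes). The 9 libraries of Experiment 1 and the 12 of Experiment 2 were fitted separately (21210 and 21505 genes), and all 21 together (22258 genes) for differences between experiments. All 7 measured genes passed the filter in every fit. Totals of 29.6 M to 57.9 M counts gave standard errors of 0.05 to 0.14 for their log2 fold changes within an experiment. No pair of replicates agreed within sampling noise (chi-square per degree of freedom 3.54 to 78.8), so each library was 1 replicate. Groups came from the titles and treatment labels. RPKM served for levels between genes and for marker sums. Scripts were tested on simulated counts.

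Coordinates, overlaps and 3′ UTRs came from GENCODE M21 (GRCm38). Overlaps are not given for every list gene named. The 9 genes and the lists were chosen with earlier results of these data known. From each list and comparison with a control, up to 2 genes that rose most and 2 that fell most were named, if called, without overlap between groups and with an average log2 CPM of 0 or more. For each measured gene the 3 most correlated genes were named, from log2 of CPM plus 0.5. Alternatives were DESeq2 1.42.0, upper-quartile scaling, other filters, a replicate block, other sets of libraries fitted, a threshold of 0.01, and leaving out each library. Irf2 is not reported here.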

Additional observations from a re-analysis of the deposited data

Results flagged for a closer look

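Each value here is a difference between log2 fold changes that passed the edgeR test of the difference itself in the fit of all 21 libraries. For Ddx58 the T6B_WT change was below the Ago2KO change by -0.66 ± 0.09 (adjusted p = 2.34e-05), since the gene rose in one and fell in the other. For Irf1 the T6B_WT change was above the Ago2KO change by 0.40 ± 0.11 (adjusted p = 0.0337). The same contrast passed for Aim2, a cytosolic DNA sensor (0.81, adjusted p = 0.0077), and for the class I gene H2-K1 (0.48, adjusted p = 0.0491).

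Between the experiments, loss of Trim71 gave lower changes in Experiment 1 than in Experiment 2 for Ikbke (-0.57, adjusted p = 0.0467), Aim2 (-0.86, adjusted p = 0.00192), Ifnlr1 (-0.73, adjusted p = 0.0316), Parp14 (-0.67, adjusted p = 0.0123) and Tap1 (-1.03, adjusted p = 0.000457). It gave higher changes for Il10rb (0.81, adjusted p = 0.0347), Dtx3l (0.51, adjusted p = 0.00275), Tor3a (0.30, adjusted p = 0.0487), Ifitm1 (0.82, adjusted p = 0.00701), Ifitm3 (0.52, adjusted p = 0.00976) and Psmb10 (0.73, adjusted p = 0.000411). Loss of Ago2 differed between the experiments for Aim2 (-1.22, adjusted p = 0.000112) and Psmb10 (0.49, adjusted p = 0.0435). Without Ago2KO_empty replicate 2, whose Ago2 level was 167 CPM, the Aim2 difference was -1.05 (edgeR adjusted p = 0.000274) and that of Psmb10 was 0.45 and was not called (adjusted p = 0.0827).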

How the results depend on the processing

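DESeq2, upper-quartile scaling and both other filters kept the number of the 7 genes called within 1.5 times in all 10 comparisons. A threshold of 0.01 left 1 gene called for Ago2KO against W (3 at 0.05), 0 for Ago2KO_empty against T6B_MUT (1) and 1 for T6B against Ago2KO (2). In the same order, calls among all genes were 2147 (3811 at 0.05), 3292 (6201) and 373 (704). With only the 2 groups fitted, 0 of the 7 were called for Ago2KO_empty against T6B_MUT, beside 5287 of all genes (6201 in the main fit). Leaving out 1 library at a time gave 5 to 6 genes for Trim71KO (6 with all libraries), 2 to 4 for Ago2KO (3), 3 to 5 for Trim71KO against Ago2KO (4), 1 to 2 for T6B_WT (2), 3 for Trim71KO_empty (3), 0 to 2 for Ago2KO_empty (1), 3 to 4 for Trim71KO_empty against Ago2KO_empty (3), 0 to 1 for each difference of a loss between experiments (0) and 1 to 2 for T6B against Ago2KO (2). Calls among all genes moved too (count with all libraries in brackets). They ranged over 5313 to 7290 for Trim71KO (6906), 2566 to 3676 for Ago2KO (3811) and 5936 to 7118 for Trim71KO against Ago2KO (7256). In Experiment 2 they were 2045 to 2497 for T6B_WT (3437), 4088 to 5832 for Trim71KO_empty (5975) and 3894 to 8083 for Ago2KO_empty (6201). For Trim71KO_empty against Ago2KO_empty they were 5581 to 7698 (6801). For the difference of Trim71 loss between experiments they were 1545 to 2277 (2237). For that of Ago2 loss they were 269 to 1634 (473), with the highest count without Ago2KO_empty replicate 3. For T6B against Ago2KO the lowest count was 500, and every such fit called fewer genes than the 704 with all libraries. Where 1 library decides a call among the 7 genes, it stands beside that gene in the report, and the cause was not tested. Of 1064 log2 fold changes of the 7 genes under an alternative, 16 changed sign, none of them called before or after.

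Same-numbered replicates did not deviate together throughout (correlation of deviations -0.64 to 0.64), so no consistent pairing by number was evident. Some pairs did go together, such as replicate 2 of Trim71KO and of Ago2KO (0.64). With 3 libraries per group these values cannot exclude a pairing. With the replicate block, 6, 2, 4, 2, 3, 1 and 3 genes were called in the 7 comparisons within experiments, in the order Trim71KO, Ago2KO, Trim71KO against Ago2KO, T6B_WT, Trim71KO_empty, Ago2KO_empty and Trim71KO_empty against Ago2KO_empty. In the same order, 6886, 3831, 7188, 3247, 5801, 5976 and 6616 of all genes were called with the block. The block gave 0, 0 and 2 for the differences of Trim71 loss, Ago2 loss and T6B against Ago2KO. Beside these, 2110, 404 and 658 of all genes were called.

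For the lists, of 385 counts under an alternative, 39 moved by over 1.5 times. Leaving out Ago2KO_empty replicate 2 for the lists was added after seeing the data. A threshold of 0.01 accounts for most of them in the comparisons with a control. It left 4 (Trim71KO), 2 (Ago2KO), 2 (T6B_WT), 4 (Trim71KO_empty) and 5 (Ago2KO_empty) receptor and signalling genes, against 7, 7, 5, 7 and 8. It left 5 effectors with T6B_WT (8 at 0.05) and 8 in Trim71KO_empty (14), and 3 RNA-sensing genes in Ago2KO (6) and 2 with T6B_WT (6). For antigen presentation it left 3 in Trim71KO (5), 2 in Trim71KO_empty (4) and 2 in Ago2KO_empty (5). For DNA sensing it left 0 in Ago2KO (3), 0 with T6B_WT (1), 1 in Trim71KO_empty (4) and 1 in Ago2KO_empty (2). At 0.01 calls among all genes were 4555 (Trim71KO), 2147 (Ago2KO), 1785 (T6B_WT), 3610 (Trim71KO_empty) and 3292 (Ago2KO_empty), against 6906, 3811, 3437, 5975 and 6201. With all 21 libraries fitted, 9 RNA-sensing genes were called in Ago2KO_empty (5), beside 7074 of all genes (6201). The block gave 2 DNA-sensing genes in Trim71KO (1), 1 in Ago2KO (3) and 1 in Ago2KO_empty (2), and the 2-group fit gave 1 in Ago2KO_empty. Bst2 in Trim71KO_empty rests on 79 to 85 counts per library, the lowest of the 7 genes.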
